A study of Homo sapiens with 6 samples.

Results

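Antigen processing and presentation genes encode the machinery that shows peptides from inside a cell to T cells. The 10 genes described here are B2M, HLA-E, TAP1, TAP2, TAPBP, PSMB8, PSMB9 and ERAP1 of the class I pathway and CD74 and HLA-DRA of the class II pathway. They were chosen by name, and all 10 of them were found among 19775 genes that have a probe set with a single gene symbol on the array. Each gene was read from the probe set with the highest mean level over the 6 arrays, and some of the other probe sets are given beside it. The 10 genes have 26 such probe sets in all, and 7 of the genes have more than 1.

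The levels come from 6 Affymetrix arrays of total RNA from A375, a human melanoma line with mutant BRAF. In these cells the gene for the translation initiation cofactor eIF4B was knocked out by CRISPR, and lentivirus then brought in either LacZ (KO/LacZ, called the knockout line here) or eIF4B in its wild-type form (the rescued line, KO/eIF4B). Both lines therefore carry the knockout and a viral insert, and neither is an unedited parent. Each line was given DMSO vehicle, 10 µM of the BRAF inhibitor vemurafenib for 6 h, or 10 µM for 18 h. Each combination was hybridised to 1 array, so the number of arrays sets the precision. No time is stated for the vehicle arrays, so drug and time in culture cannot be told apart, and nothing says whether the lines are clones or the arrays separate cultures. The p-values thus measure the spread between these arrays, which may be technical. RMA brings all arrays to 1 distribution, so every level is relative to the other transcripts of its array, and fewer cells that express a gene cannot be told apart from less RNA per cell.

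In the class I pathway, proteasomes cut cytosolic proteins into peptides, the TAP1-TAP2 transporter carries the peptides into the endoplasmic reticulum, tapasin (TAPBP) and chaperones load them onto a heavy chain bound to B2M, and ERAP1 trims their ends. Interferons replace constitutive catalytic subunits of the proteasome by the immunoproteasome subunits PSMB8, PSMB9 and PSMB10. In the class II pathway, the invariant chain CD74 guards the groove of HLA-DRA and its partner chain until HLA-DM helps to exchange its fragment for peptide in endosomes. Most cell types other than antigen-presenting cells and thymic epithelium need interferon gamma to make class II, but many melanomas make it without.

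The genes TAP2, PSMB8, TAP1 and PSMB9 lie side by side within 38.0 kb of chromosome 6, and TAP1 and PSMB9 are transcribed away from each other from a stretch of 487 bases. RefSeq windows of 250 bases before the start site are shown for these neighbours, whose levels are set side by side in the results, and for TAPBP and B2M as other class I genes. The TAP1 and PSMB9 windows share 13 bases and together cover the whole stretch between them. The sequences are from the RefSeq table for GRCh38.p14, read 5′ to 3′ on the strand of the gene, and the capitals mark the motif matches described in the next paragraph.
TAP2 (chr6:32838740-32838989, strand -): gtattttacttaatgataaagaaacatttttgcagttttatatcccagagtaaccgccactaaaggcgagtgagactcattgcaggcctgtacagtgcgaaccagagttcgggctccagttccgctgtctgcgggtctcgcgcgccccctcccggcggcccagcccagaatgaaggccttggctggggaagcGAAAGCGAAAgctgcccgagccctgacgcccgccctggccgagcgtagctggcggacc
PSMB8 (chr6:32844680-32844929, strand -): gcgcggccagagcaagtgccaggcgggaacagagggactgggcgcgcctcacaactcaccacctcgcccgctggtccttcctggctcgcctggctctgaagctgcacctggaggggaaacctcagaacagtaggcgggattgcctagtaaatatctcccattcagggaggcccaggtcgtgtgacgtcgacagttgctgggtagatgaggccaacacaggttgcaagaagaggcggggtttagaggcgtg
TAP1 (chr6:32853705-32853954, strand -): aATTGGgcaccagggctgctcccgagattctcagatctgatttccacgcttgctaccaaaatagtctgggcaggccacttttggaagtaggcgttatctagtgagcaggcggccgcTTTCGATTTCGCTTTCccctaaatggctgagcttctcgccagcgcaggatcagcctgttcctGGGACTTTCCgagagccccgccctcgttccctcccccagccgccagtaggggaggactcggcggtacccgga
PSMB9 (chr6:32853942-32854191, strand +): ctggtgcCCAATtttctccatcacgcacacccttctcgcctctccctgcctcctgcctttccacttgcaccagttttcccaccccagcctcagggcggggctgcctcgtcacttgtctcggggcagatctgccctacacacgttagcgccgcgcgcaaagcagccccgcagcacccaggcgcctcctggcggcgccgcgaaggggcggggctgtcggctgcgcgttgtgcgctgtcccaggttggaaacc
TAPBP (chr6:33314079-33314328, strand -): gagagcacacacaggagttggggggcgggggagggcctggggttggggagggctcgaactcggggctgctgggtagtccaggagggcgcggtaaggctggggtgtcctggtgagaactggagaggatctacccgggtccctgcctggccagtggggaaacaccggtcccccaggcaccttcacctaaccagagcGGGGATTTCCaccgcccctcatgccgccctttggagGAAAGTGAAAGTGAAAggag
B2M (chr15:44711267-44711516, strand +): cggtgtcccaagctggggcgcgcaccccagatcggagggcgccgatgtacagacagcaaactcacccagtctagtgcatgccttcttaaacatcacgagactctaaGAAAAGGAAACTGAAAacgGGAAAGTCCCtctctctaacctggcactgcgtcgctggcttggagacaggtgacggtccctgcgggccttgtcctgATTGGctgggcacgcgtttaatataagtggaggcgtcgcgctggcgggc

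Motifs were searched on both strands: the interferon regulatory factor type (TTTC and TTTC separated by NN, the core of an interferon-stimulated response element), the STAT site TTCNNNGAA, the box CCAAT bound by NF-Y, and the NF-kB site. Matches of 1 motif may overlap each other, as those of the interferon type do here. The interferon type was found in the windows of B2M, TAP1, TAP2 and TAPBP, 4 of the 8 genes that have a window, and in 3.02% of all 35116 windows. TAP1 and TAPBP each held 2 overlapping matches on the same strand, as did B2M, and TAP2 held 1. In the TAP1 window the interferon-type match starts 134 bases before the start site and an NF-kB match 72 bases before it. NF-kB matches were found in 5 of the 8 genes and in 9.96% of all windows. CCAAT was found in 5 of the 8 and in 32% of all windows; the TAP1 and PSMB9 matches are the same bases, read from either strand in the stretch the windows share, so the 5 genes hold 4 distinct sites. The STAT site was found in 6.57% of all windows and in 0 of these 8. TAP1, PSMB8 and ERAP1 have another start site in the table, whose windows are not in these counts; those of TAP1 and PSMB8 each hold the STAT site. A match is a description of letters and not evidence of binding.

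A375 identity and data quality were checked first. Of 8 melanoma and pigment cell markers 7 had a mean of at least 5 log2 units, with means of 11.70 for MIA and 10.27 for SOX10. MLANA (4.88) did not reach that mean, and PMEL (5.68) and TYR (5.57) lay near the array medians of 5.193 to 5.221. Of the 7, 3 were called higher and 0 lower at 18 h, and 1 higher and 1 lower at 6 h (limma). Over all genes 51.4% were called at 18 h and 16.2% at 6 h. MITF read 8.50 (vehicle), 9.38 (6 h) and 9.97 (18 h) in the knockout line against 8.10, 9.24 and 9.88 in the rescued line. SOX10 read 10.45, 9.86 and 10.51 in the knockout line against 10.57, 9.91 and 10.30 in the rescued line. EIF4B itself was lower in the knockout line, with a difference of -1.68 log2 (SE 0.05, 3.2-fold; limma, Benjamini-Hochberg adjusted p = 0.0056). Of 12 markers of antigen-presenting and other blood cells 5 reached a mean of 5 log2 units, LYZ (6.64), HBB (6.65), CD79A (6.21), CD3E (5.76) and ITGAM (5.12). LYZ was the only one of them called at 18 h, where it changed by -0.86 (limma adjusted p = 0.0013). PTPRC read 3.05 on average, CD14 4.34 and MS4A1 3.97, and the mean over the 12 lay between 4.83 and 5.08 in all arrays. Of 5 fibroblast markers 3 were tested, and 2 of them, LUM and DCN, were called higher at 18 h, with changes of 2.49 and 1.78. COL1A1 was not called at 18 h. It read 7.87 (vehicle) and 7.894 (18 h) in the knockout line against 7.99 and 7.996 in the rescued line. COL1A2 (4.72) and PDGFRA (4.31) were dim throughout. The mean over the 5 was 5.77 to 6.03 under vehicle, 6.22 to 6.29 at 6 h and 6.69 to 6.93 at 18 h. That rise lay mostly in LUM and DCN. The mean over 5 epithelial markers was 5.99 to 6.23, but it joined unlike levels. KRT18 averaged 12.23 and KRT8 8.34, while EPCAM (2.60), CDH1 (3.14) and KRT19 (4.17) were too dim to be tested. Both tested ones were called at 18 h in opposite directions, KRT18 with -0.78 and KRT8 with 0.39. KRT18 was also called at 6 h (-0.32). Between the lines 1 of the 2 was called higher in the knockout line, as 1.44% of all genes were. The part of any of these in the results was not tested.

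After 18 h of vemurafenib the 10 genes split by direction. PSMB9, ERAP1, PSMB8 and TAPBP rose in both lines by 1.38- to 1.71-fold, and TAP2, HLA-DRA and CD74 fell by 1.14- to 1.51-fold, CD74 at the threshold. B2M, TAP1 and HLA-E did not pass the test. So 7 of the 10 genes were called, 4 higher and 3 lower, where 51.4% of all 13506 genes tested were called (28.1% higher and 23.3% lower), and with 10 genes that share is not read as particular to them. At 6 h 0 of the 10 were called (0 also at an unadjusted p under 0.05 in limma), against 16.2% of all genes, 7.34% higher and 8.82% lower. From 6 h to 18 h 6 were called, PSMB9, ERAP1, PSMB8 and TAPBP higher and TAP2 and HLA-DRA lower, against 34% of all genes, 19% higher and 14.9% lower. The 6 h and 18 h comparisons share the vehicle arrays. In 4 of the 10 both 18 h arrays lay above both vehicle arrays, as in 37% of all genes, and in 4, HLA-E among them, they lay below, as in 34%. All tests are from an additive limma model of line and treatment with Benjamini-Hochberg adjustment over all genes at a threshold of 0.05. Their error combines the disagreement between the lines (2 residual degrees of freedom) with a spread pooled over all genes (3.19 prior degrees of freedom).

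**Figure D1:**
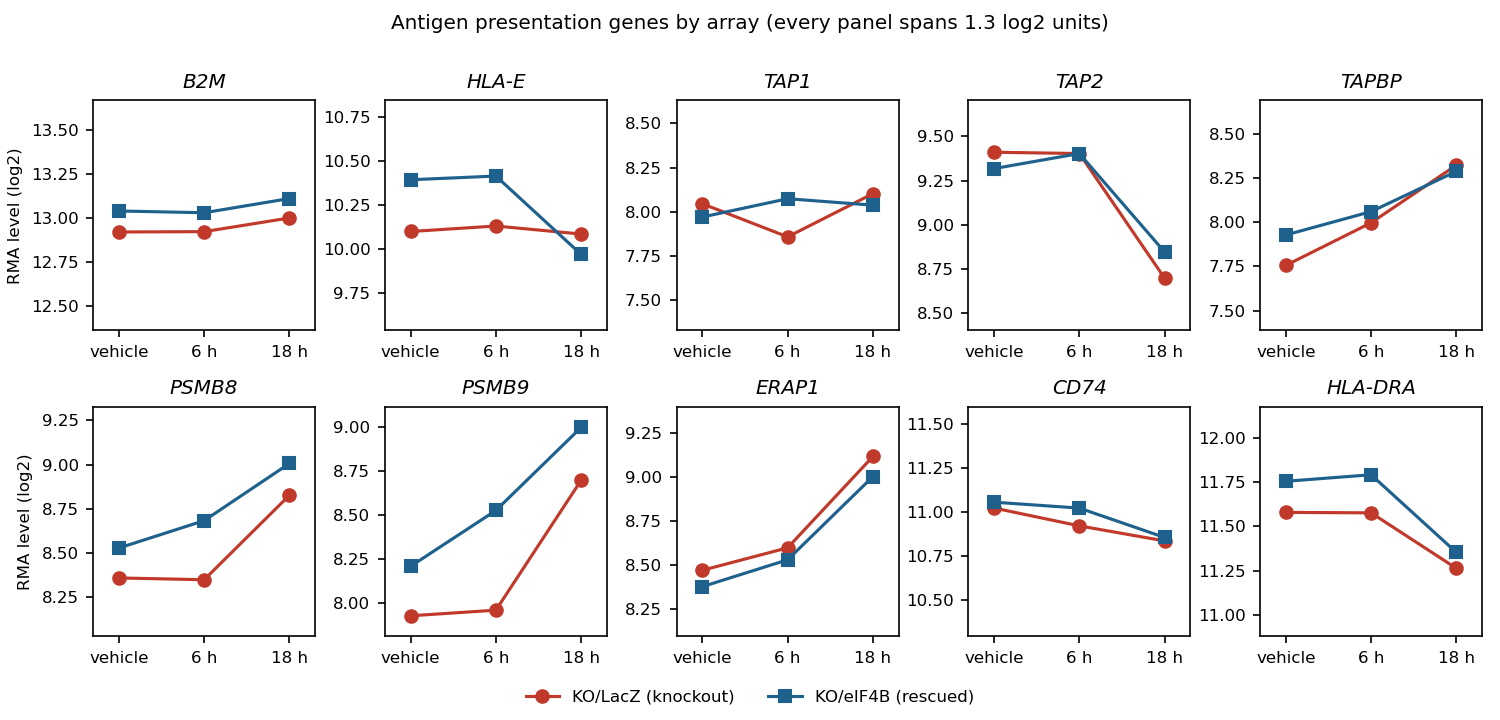
RMA level (log2) of the 10 genes on each of the 6 arrays, by treatment, with the knockout line as red circles and the rescued line as blue squares; every panel spans the same height. In the probe sets shown, PSMB9, PSMB8, ERAP1 and TAPBP climb from vehicle to 18 h in both lines, and B2M stays within 0.19 log2 units. TAP2 and HLA-DRA drop only between 6 h and 18 h in these sets, whereas another TAP2 set is lower at 6 h too.

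PSMB9 encodes an immunoproteasome subunit that takes the place of PSMB6. Its levels were 7.93 (vehicle), 7.96 (6 h) and 8.70 log2 units (18 h) in the knockout line against 8.21, 8.53 and 9.0 in the rescued line. Both 18 h arrays lay above both vehicle arrays, and the rescued line was already 0.32 higher at 6 h, whereas the knockout line was 0.03 higher. At 18 h PSMB9 rose by 0.78 log2 (SE 0.09, 1.71-fold; limma, Benjamini-Hochberg adjusted p = 0.0018), the most of the 10 genes, and between 6 h and 18 h by 0.60 (adjusted p = 0.0085 in limma). The 6 h change itself was not called, at 0.17 with a 95% interval of -0.06 to 0.40.

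PSMB8, the immunoproteasome counterpart of PSMB5, read 8.36, 8.35 and 8.83 in the knockout line against 8.53, 8.68 and 9.01 in the rescued line, in the same order of treatments. The knockout line differed by -0.01 between 6 h and vehicle, and the vehicle and 18 h arrays did not overlap. PSMB8 rose at 18 h by 0.47 log2 (SE 0.07, 1.39-fold; limma, Benjamini-Hochberg adjusted p = 0.0039), nearly alike in the lines at 0.47 and 0.48. The constitutive subunits were not called at 18 h against vehicle: PSMB5 differed by -0.17, PSMB6 by 0.01 and PSMB7 by -0.03 (limma adjusted p of 0.067, 0.92 and 0.73). From 6 h to 18 h PSMB5 fell by 0.22 (limma adjusted p = 0.046). PSMB10, the counterpart of PSMB7, rose by 0.40 (adjusted p = 0.0044 in limma).

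TAP2, one of the transporter's 2 chains, went the other way. Its levels were 9.41 (vehicle), 9.40 (6 h) and 8.70 log2 units (18 h) in the knockout line against 9.32, 9.40 and 8.85 in the rescued line. Both 18 h arrays lay below all other arrays. TAP2 fell at 18 h by 0.59 log2 (SE 0.08, 1.51-fold; limma, Benjamini-Hochberg adjusted p = 0.0027), and the change from 6 h to 18 h was -0.63 (adjusted p = 0.0057 in limma). At 6 h the change was 0.04. Further probe sets of TAP2 fell too, but by other amounts. The set 225973_at read 8.27, 7.76 and 6.71 in the knockout line against 7.94, 7.55 and 6.93 in the rescued line, a change of -1.28 at 18 h, and 204770_at changed by -0.45 (limma adjusted p of 0.0012 and 0.038 over all 24979 single-symbol probe sets tested, of which 49.8% were called at 18 h, 14.6% at 6 h and 31.6% from 6 h to 18 h). The set 208428_at averaged 3.41 and was too dim to be tested. The 18 h change thus differed between the tested TAP2 sets, from -0.45 to -1.28. At 6 h 225973_at changed by -0.45 and 204770_at by -0.13, neither called (limma adjusted p of 0.09 and 0.56). The change of 0.04 at 6 h is thus that of the main set only.

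TAP1, its partner chain, read 8.05, 7.86 and 8.10 in the knockout line against 7.97, 8.07 and 8.04 in the rescued line. Vehicle and 18 h arrays overlapped, and the knockout array at 6 h was the lowest of the 6. The 18 h change was 0.06 with a 95% interval of -0.17 to 0.30 (limma adjusted p = 0.61). Along the chromosome the changes at 18 h thus ran, in order, -0.59 for TAP2, 0.47 for PSMB8, 0.06 for TAP1 and 0.78 for PSMB9. TAP1 and TAP2 both hold the interferon-type motif shown in the sequences, and PSMB8 and PSMB9 hold none in their own windows. The TAP1 matches lie in the 487 bases between TAP1 and PSMB9, but outside the PSMB9 window. Genes were not tested against each other.

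**Figure D2:**
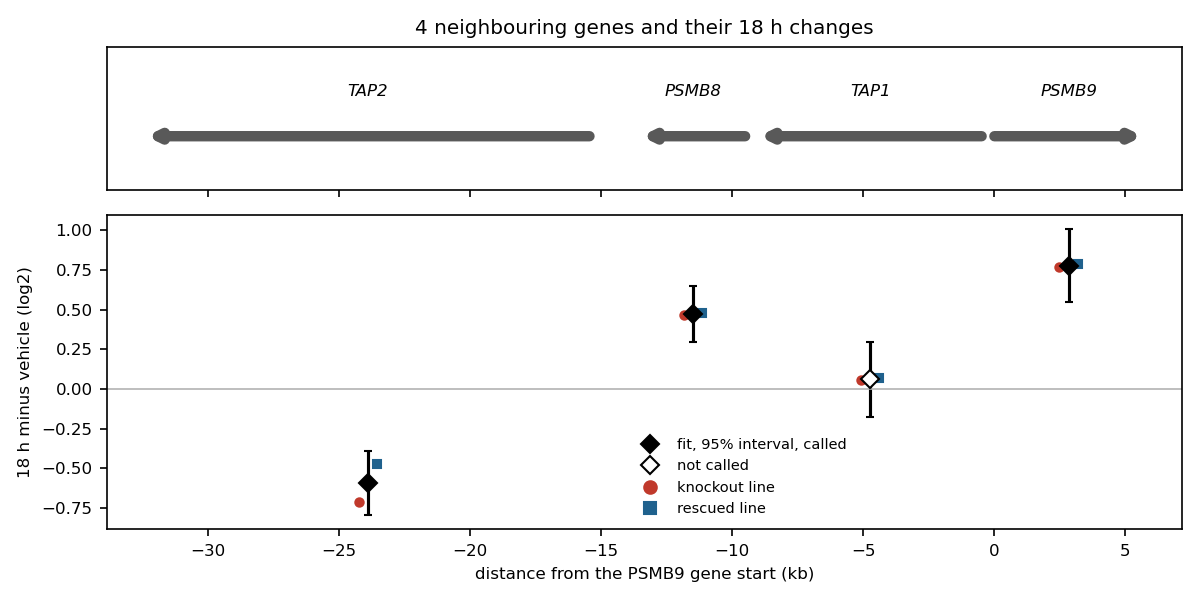
Top, the 4 neighbouring genes drawn to scale as arrows in the direction of transcription, by distance from the PSMB9 gene start in kb; bottom, the change from vehicle to 18 h (log2) of each, with the fit and its 95% interval in black and the lines in colour. TAP2 lies below 0, PSMB8 and PSMB9 above it, and the interval of TAP1 spans it.

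TAPBP encodes tapasin, which bridges the transporter and the empty class I molecule. Its levels were 7.76 (vehicle), 8.0 (6 h) and 8.32 log2 units (18 h) in the knockout line against 7.93, 8.06 and 8.29 in the rescued line. In both lines 6 h lay above vehicle and 18 h above 6 h, without overlap between vehicle and 18 h, and TAPBP was the member closest to a call at 6 h (0.19, limma adjusted p = 0.15). At 18 h it rose by 0.46 log2 (SE 0.07, 1.38-fold; limma, Benjamini-Hochberg adjusted p = 0.0048), and from 6 h to 18 h by 0.28 (limma adjusted p = 0.039). That last call was lost without the filter on dim genes, at an adjusted p of 0.072. The probe set 1555565_s_at gave 0.47 at 18 h (limma adjusted p = 0.0057), close to the main one, and 210294_at was too dim to be tested.

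ERAP1, the aminopeptidase that trims peptides in the endoplasmic reticulum, read 8.47 (vehicle), 8.60 (6 h) and 9.12 log2 units (18 h) in the knockout line against 8.38, 8.53 and 9.0 in the rescued line. The 18 h arrays stood apart from the other 4, and the lines rose by 0.64 and 0.62. The rise at 18 h was 0.63 log2 (SE 0.06, 1.55-fold; limma, Benjamini-Hochberg adjusted p = 0.00096). The set 210385_s_at rose likewise, by 0.65 (limma adjusted p = 0.0025). The set 209701_at did not: it read 7.47, 7.72 and 7.46 in the knockout line against 7.62, 7.85 and 7.61 in the rescued line, a change of 0.24 at 6 h and of -0.01 at 18 h (limma adjusted p of 0.06 and 0.9), and it fell from 6 h to 18 h by 0.25 (adjusted p = 0.033 in limma). The probe sets of ERAP1 thus disagree, and the part of the transcripts each one reads was not analysed here. With the mean of all its probe sets, the ERAP1 change at 18 h was 0.24, still called, and that from 6 h to 18 h was 0.15 and no longer called (limma adjusted p = 0.16).

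**Figure D3:**
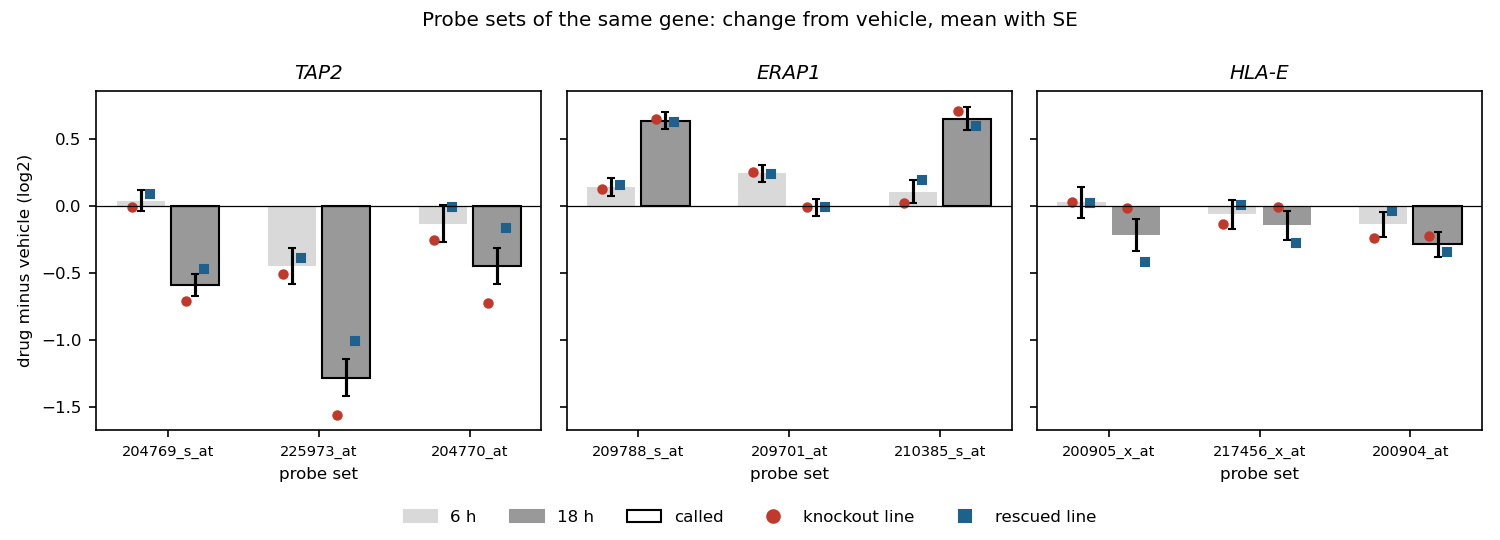
Change from vehicle (log2) at 6 h in light grey and at 18 h in dark grey for the tested probe sets of TAP2, ERAP1 and HLA-E, as the fitted mean with its SE; black outlines mark calls, and the circles and squares are the knockout and the rescued line. The 3 TAP2 sets fall at 18 h by different amounts, 1 of 3 ERAP1 sets does not rise at 18 h, and 1 of 3 HLA-E sets is called lower.

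B2M, the light chain shared by all class I molecules, was the steadiest member. Its levels were 12.92 (vehicle), 12.92 (6 h) and 13.0 log2 units (18 h) in the knockout line against 13.04, 13.03 and 13.11 in the rescued line. All 3 knockout arrays lay below all 3 rescued arrays. The 18 h change was 0.07 with a 95% interval of -0.07 to 0.22 (limma adjusted p = 0.33), and it was called only when the prior variance was allowed to follow the mean level (adjusted p = 0.048).

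HLA-E encodes a non-classical heavy chain that shows leader peptides of other class I chains to natural killer cells. Its levels were 10.10 (vehicle), 10.13 (6 h) and 10.09 log2 units (18 h) in the knockout line against 10.39, 10.41 and 9.97 in the rescued line. The rescued line was higher under vehicle and at 6 h and lower at 18 h, so its 18 h change of -0.42 set against -0.01 in the knockout line. The fitted change was -0.22 with a 95% interval of -0.52 to 0.08 (limma adjusted p = 0.18). The main HLA-E set ends in x_at, a mark for probes that can match other transcripts. The set 200904_at, which carries no such mark, read 7.84, 7.60 and 7.61 in the knockout line against 7.92, 7.88 and 7.57 in the rescued line and changed at 18 h by -0.29, at the edge of the threshold (limma adjusted p = 0.05 after rounding). With that set the knockout and the rescued line changed by -0.22 and -0.35. A further x_at set, 217456_x_at, changed at 18 h by -0.01 in the knockout line and by -0.28 in the rescued line. Its fitted change was -0.15 (limma adjusted p = 0.32).

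In the class II pathway, HLA-DRA, the alpha chain of HLA-DR, read 11.58 (vehicle), 11.58 (6 h) and 11.26 log2 units (18 h) in the knockout line against 11.76, 11.79 and 11.35 in the rescued line. Vehicle and 6 h were alike within each line, and both 18 h arrays lay below the other 4. HLA-DRA fell at 18 h by 0.36 log2 (SE 0.06, 1.28-fold; limma, Benjamini-Hochberg adjusted p = 0.0072), and its second set, 210982_s_at, by 0.35 (limma adjusted p = 0.012). CD74, the invariant chain, read 11.02, 10.92 and 10.84 in the knockout line against 11.06, 11.02 and 10.86 in the rescued line. The 18 h arrays were the lowest, by little. CD74 fell at 18 h by 0.19 log2 (SE 0.06, 1.14-fold; limma, Benjamini-Hochberg adjusted p = 0.046). This call is at the threshold: it was lost without the filter on dim genes (adjusted p = 0.090), with every probe set in the fit (0.056) and with the mean of all CD74 probe sets (0.15), and the sets 1567628_at and 1567627_at changed by -0.14 and -0.04 without a call. The monocyte and macrophage marker LYZ moved the same way at 18 h as HLA-DRA and CD74, and its levels were 6.84, 6.55 and 6.06 in the knockout line against 7.15, 7.01 and 6.21 in the rescued line; its part in these results was not tested.

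**Figure D4:**
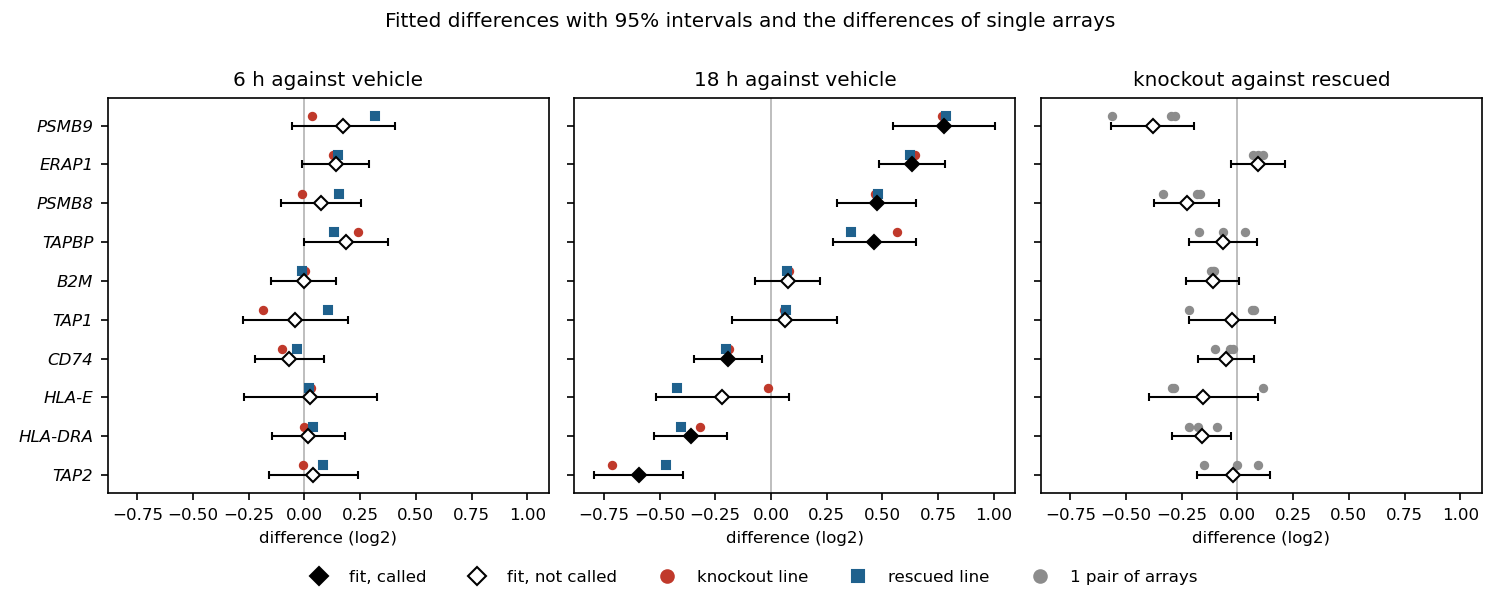
Fitted difference (log2) of the 10 genes at 6 h, at 18 h and between the lines, with 95% intervals; filled diamonds are called and open ones are not, red circles and blue squares give each line's own change, and grey circles each pair of arrays. At 6 h no gene is called, at 18 h 4 are higher and 3 lower, and between the lines 9 of the 10 lie below 0 without a call.

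The second question is whether eIF4B status moved these genes. With vehicle and drug arrays fitted together, 9 of the 10 were lower in the knockout line and ERAP1 was higher, yet 0 of 10 were called, against 2.5% of all genes, 1.44% higher and 1.06% lower (limma with Benjamini-Hochberg adjustment; 3 had an unadjusted p under 0.05, and 48.5% of all genes were below 0). Of the 10, B2M, PSMB8, PSMB9, CD74 and HLA-DRA were lower in all 3 pairs of arrays, which 21.2% of all genes were. In PSMB9 the pairs differed by -0.28, -0.56 and -0.30 under vehicle, 6 h and 18 h, a mean of -0.38 (SE 0.07, 1.3-fold, limma, Benjamini-Hochberg adjusted p = 0.073). PSMB8 followed with -0.23 (limma adjusted p = 0.11) and HLA-DRA with -0.16 (limma adjusted p = 0.16). B2M differed by -0.11 (limma adjusted p = 0.24), and was the only one of the 10 with every knockout array below every rescued array, as in 4.09% of all genes. When the prior variance followed the mean level, 3 of the 10 were called lower, B2M, PSMB9 and HLA-DRA, at adjusted p-values of 0.025, 0.021 and 0.033, and 1169 genes were called in place of 337.

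The response to the drug was not shown to differ between the lines. A term for a response difference shared by both times, with 1 residual degree of freedom, called 0 of the 10 and 0 of all 13506 genes (limma with Benjamini-Hochberg adjustment; 0 of the 10 and 302 genes had an unadjusted p under 0.05). Its estimates ran from -0.17 for TAP2 to 0.21 for HLA-E, with 95% intervals that reached 0.35 to 0.51 log2 units to each side. Differences smaller than that were not detectable, and larger ones may have been missed too after adjustment over all genes. The smallest adjusted p of any gene for this term was 0.81 (limma with Benjamini-Hochberg adjustment). At 18 h alone the changes of PSMB9, PSMB8, ERAP1, B2M, CD74 and TAP1 were within 0.03 log2 units between the lines, as values with no test. For the other 4 genes the knockout minus rescued difference in the 18 h change was 0.41 for HLA-E, -0.24 for TAP2, 0.21 for TAPBP and 0.09 for HLA-DRA, also with no test.

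The other genes of the pathway were read from lists, with the same limma calls at an adjusted p under 0.05. Over all genes 51.4% were called at 18 h, 28.1% higher and 23.3% lower, and 16.2% at 6 h, 7.34% higher and 8.82% lower. At 6 h the class I list had 1 call (lower), the proteasome and class II lists 0 (limma; 0 and 3 at an unadjusted p under 0.05), and the regulators 1 higher and 2 lower. Among 12 tested class I heavy chains and relatives 5 rose at 18 h and 4 fell, with a median of 0.15, against 0.01 over all genes. MR1, which presents vitamin metabolites, rose by 1.28, and HLA-C by 0.54. The vehicle arrays of MR1 read 4.68 (knockout) and 5.21 (rescued), around the mean of 5 log2 units required for testing. They averaged 4.94, and MR1 passed the filter through its drug arrays, which averaged 5.34 at 6 h and 6.23 at 18 h. The low vehicle level may be background signal, so the call of MR1 and the size of its rise are uncertain. ULBP2 and MICB, stress ligands of the natural killer receptor NKG2D, fell by 0.61 and 0.51. The HLA-B and HLA-G sets were called higher as well (0.33 and 0.24). HLA-B, HLA-C, HLA-F and HLA-G were read from x_at sets, so their signals may share transcripts.

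Peptide supply genes split. Of 17 tested 7 rose and 4 fell at 18 h, with a median of 0.09, where 28.1% of all genes rose and 23.3% fell. UBE2L6, the enzyme that conjugates ISG15, rose by 0.86 and was the only one of this list called at 6 h (0.26, limma adjusted p = 0.046). PSME1, a subunit of the interferon-induced proteasome activator PA28, rose by 0.74, whereas PSME3, which forms the nuclear activator PA28 gamma, fell by 0.71. NPEPPS, a cytosolic aminopeptidase, rose by 0.51. Of 13 constitutive 20S proteasome genes 0 rose and 2 fell at 18 h, PSMA5 by 0.32 and PSMA3 by 0.25 (limma; 0 higher and 3 lower at an unadjusted p under 0.05), with a median of -0.03.

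Class II genes other than HLA-DRA did not move as one. Of 15 tested 5 rose and 4 fell at 18 h, with a median of 0.07, where 28.1% of all genes rose and 23.3% fell. HLA-DMB and HLA-DMA, the chains of the peptide exchange factor HLA-DM, fell by 1.47 and 0.93, and HLA-DOA, a chain of its modulator HLA-DO, by 0.81. HLA-DMB read 8.18, 7.90 and 6.69 in the knockout line against 8.45, 8.29 and 7.0 in the rescued line. Most of the drop lay between 6 h and 18 h in both lines. Chains that form the presenting molecules were not called: HLA-DPA1 changed by 0.05, HLA-DPB1 by 0.02, HLA-DQB1 by 0.10 and HLA-DRB1 by 0.07 (limma adjusted p of 0.52, 0.84, 0.3 and 0.48). HLA-DQB1 and HLA-DRB1 were read from x_at sets, which can match other transcripts, and HLA-DQA1 (4.76) was too dim to be tested. The lysosomal protease CTSD rose by 0.66. CTSS, the protease that cuts CD74 in antigen-presenting cells, was too dim to be tested.

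**Figure D5:**
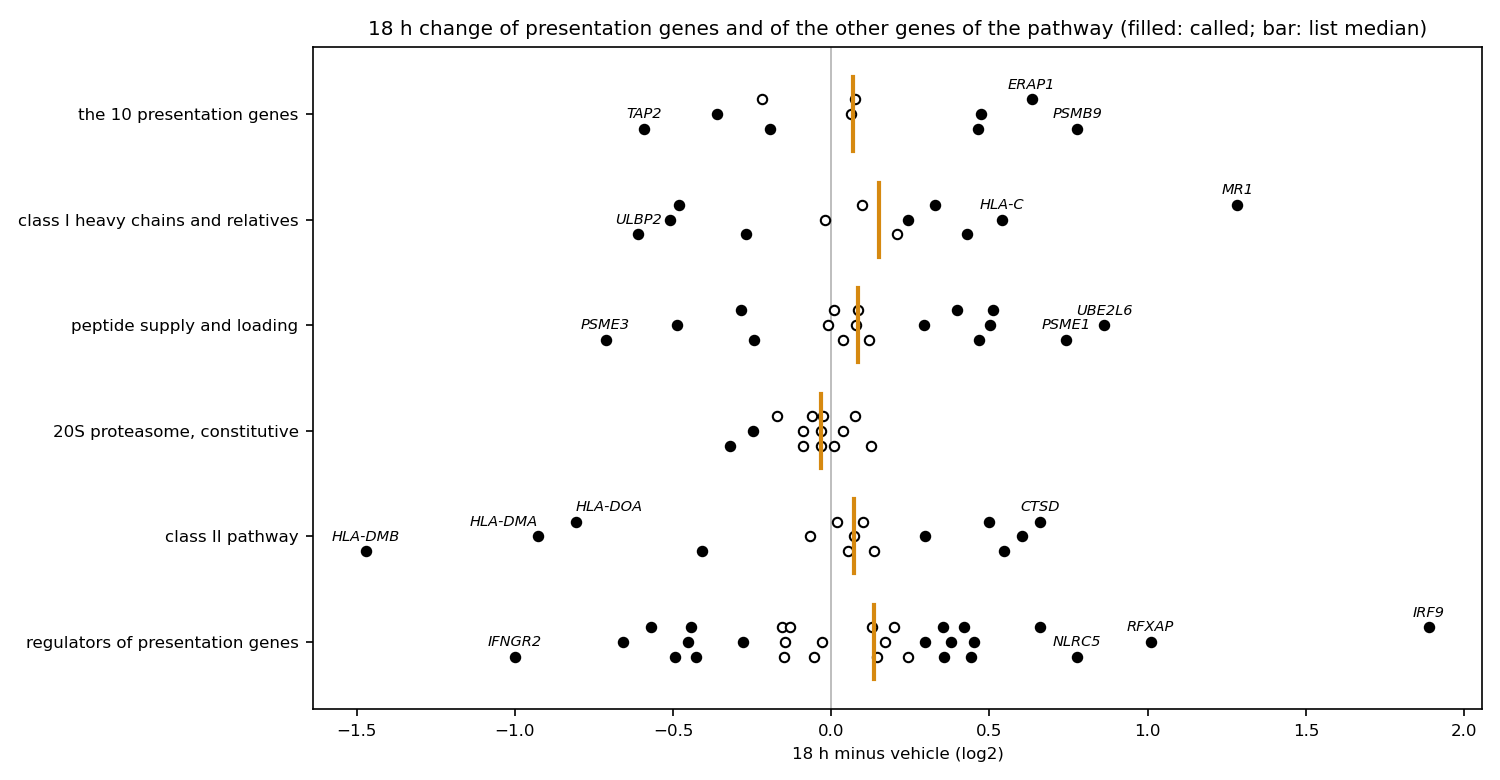
Change from vehicle to 18 h (log2) of the 10 genes and of the other pathway genes by list, 1 point per tested gene; filled points are called, and the bar is the list median. HLA-DMB is the lowest and IRF9 the highest, and 2 of 13 constitutive proteasome genes are called, both lower, against 51.4% of all genes called.

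Regulators of these genes were measured too. Of 30 tested 11 rose and 8 fell at 18 h, with a median of 0.14, where 28.1% of all genes rose and 23.3% fell. NLRC5, the class I transactivator, rose by 0.78 and read 5.04, 5.15 and 5.93 in the knockout line against 5.23, 5.07 and 5.90 in the rescued line, so that the rise came between 6 h and 18 h. Its vehicle and 6 h arrays lay near the array medians, so NLRC5 is a dim gene here. CIITA, the class II transactivator, was dim as well, at 5.66 on average, and changed by -0.15 (limma adjusted p = 0.19). RFXAP, a subunit of the factor that binds the class II X box, rose by 1.01 and was called at 6 h (1.15), while its partner RFX5 changed by 0.13 (limma adjusted p = 0.27). IRF9 rose by 1.89, IRF1 fell by 0.44, and IFNGR2, a chain of the interferon gamma receptor, fell by 1.0. Both IRF1 and IFNGR2 were already lower at 6 h in both lines. IFNGR2 read 9.33 (vehicle), 8.47 (6 h) and 8.43 (18 h) in the knockout line against 9.46, 8.53 and 8.35 in the rescued line. IRF1 read 7.40, 6.78 and 6.98 in the knockout line against 7.32, 7.10 and 6.85 in the rescued line.

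Between the lines 2.5% of all genes tested were called, 1.44% higher and 1.06% lower. The calls were 0 of 12 in the class I list, 1 of 17 in peptide supply and 0 of 13 in the proteasome list. They were 2 of 15 in the class II list and 1 of 30 among the regulators. Knockout minus rescued, HLA-DMA differed by -0.47, the interferon factor IRF7 by -0.44, UBE2L6 by -0.32 and the protease CTSH by 0.60 (limma adjusted p of 0.034, 0.039, 0.048 and 0.028). No other tested gene of the class I, peptide supply, proteasome, class II and regulator lists was called between the lines.

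PSMB9 was the only one of the 10 whose levels spanned at least 1 log2 unit over the 6 arrays. Among the 1829 other tested genes with such a span, the ones whose log2 levels correlated best with it over the 6 arrays were SCRG1 (Pearson r = 0.99), ZNF83 (0.99) and IRF7 (0.99). This is a description over 6 arrays that share lines and treatments. IRF7 read 6.14, 6.23 and 6.81 in the knockout line against 6.54, 6.77 and 7.18 in the rescued line, lower in the knockout line in all 3 pairs and higher at 18 h in both lines, as PSMB9 was.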

How the data were processed

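Total RNA of A375 cells was measured on Affymetrix arrays. The authors deposited linear RMA intensities (3.01 to 19000), made with RMA and affy per the submitters' processing notes, which name no version; log2 was taken here. Of 54675 probe sets, 62 controls were left out, 41091 have a single symbol in GEO's annotation, 1801 have more and 11721 none; 41037 single-symbol sets matched RefSeq's GRCh38.p14 gene table by gene identifier. Each gene was read from its highest-mean probe set, and the 13506 whose mean reached 5 on the log2 scale entered the tests. Groups came from the sample titles, 1 array each. limma 3.58.1 in R 4.3.3 fitted line and treatment additively (lmFit and eBayes, 2 residual and 3.19 prior degrees of freedom), and a second model added 1 term for a response difference. P-values are two-sided with Benjamini-Hochberg adjustment, and intervals cover 95%. The models were tested on simulated data. Alternatives changed the filter, the choice of probe set, the centring and the prior variance.

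Members, lists and motifs were chosen with earlier results of these data known. Named genes were the members, up to 4 called genes per list with the largest 18 h change, NLRC5, CIITA, IRF1, RFX5, PSMB5, PSMB6 and PSMB7, EIF4B, and the 3 genes most correlated with a member spanning at least 1 log2 unit. Some items of the lists and the rule are not reported here. Other pathway genes named in the text were chosen after their values were seen. RefSeq promoter windows matched 8 of the 10 members by symbol; HLA-E and HLA-DRA are named only. Positions are counted back from the start site.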

Additional observations from a re-analysis of the deposited data

Results flagged for a closer look

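At 6 h several of the 10 genes moved in opposite directions in the lines, with 1 array each. The change from vehicle in the knockout line minus that in the rescued line was -0.29 log2 units for TAP1 (-0.19 and 0.10), -0.17 for PSMB8 (-0.01 and 0.15), -0.0925 for TAP2 (-0.0074 and 0.0851), -0.0394 for HLA-DRA (-0.0025 and 0.0369) and 0.012 for B2M (0.0019 and -0.0102). These differences at a single time were not tested, and 4 of the 5 rest on a change of at most 0.01 in the knockout line. At 18 h each of the 10 genes moved the same way in both lines.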

How the results depend on the processing

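No paired analysis was possible because the labels number no replicates; the line already enters the model as a block for the drug comparisons. The 7 calls at 18 h became 6 without the filter on dim genes, with every probe set in the fit and with the mean of all probe sets, each time without CD74, and 8 with a prior variance following the mean level; 0 of the 10 were called at 6 h under any of the 6 alternatives. Between the lines 3 of the 10 were called with that prior variance and 0 otherwise. Over all genes, calls at 6 h went from 2182 to 1398 without the filter and to 3656 with every probe set in the fit; that last setting, which tests more features, gave 12434 at 18 h and 7882 for 18 h against 6 h, from 6947 and 4587. Calls between the lines went from 337 to 58 without the filter, 513 with a mean of at least 6 and 1169 with the trended prior, which also called 11 response differences in place of 0. Signs turned only in values without a call: with the mean of all probe sets at 6 h in HLA-E (-0.0588), TAP2 (-0.15) and CD74 (0.0038), between the lines in TAP2 (0.0475) and ERAP1 (-0.0544), and for the response difference in B2M (-0.0717) and CD74 (0.11); with arrays centred on the median in HLA-DRA at 6 h (-0.0023) and for the ERAP1 response difference (0.0001). The causes were not tested. Signal close to background limits dim genes such as CD274.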

Other observations

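Ligands through which a tumour cell signals to T cells and natural killer cells, beside the peptide itself, fell or were not called against vehicle. Of 12 tested 6 fell at 6 h and 0 rose, against 8.82% of all genes lower and 7.34% higher (limma with Benjamini-Hochberg adjustment). By 18 h 7 fell and 0 rose, against 23.3% of all genes lower and 28.1% higher. With an unadjusted p under 0.05 in limma, 0 were higher at either time and 7 lower at each. The list medians were -0.39 at 6 h and -0.45 at 18 h, against 0.03 and 0.01 over all genes. From 6 h to 18 h 2 of the 12 were called higher and 3 lower, against 19% and 14.9% of all genes (limma). The list was chosen with earlier results of these data known. CD274, which encodes PD-L1, the ligand of PD-1, read 5.65, 4.71 and 4.99 in the knockout line against 5.98, 5.04 and 5.21 in the rescued line under vehicle, 6 h and 18 h. Both lines dropped by 6 h, and CD274 changed by -0.94 at 6 h and -0.71 at 18 h (limma adjusted p of 0.002 and 0.00092). The drug arrays lay around the floor of 5 log2 units set for the mean, which CD274 passed through its vehicle arrays, so its low level may be background signal and the size of the fall is uncertain.

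CD276, which encodes B7-H3, changed by -0.55 at 6 h and -0.87 at 18 h, and PVR, a ligand of TIGIT and DNAM-1, by -0.38 and -0.72. NT5E, an ecto-enzyme that makes adenosine, changed by -0.51 at 6 h and -3.24 at 18 h. It read 8.14, 7.49 and 4.90 in the knockout line against 8.44, 8.07 and 5.204 in the rescued line, so its 18 h arrays also lay around that floor, and the size of the 18 h change is uncertain. The adhesion ligands CD58 and ICAM1 changed by -0.51 and -0.39 at 18 h and were called at both times. CD47, the signal against phagocytosis, changed by 0.05 at 18 h and was lower in the knockout line, by a difference of -0.32 (limma adjusted p = 0.049), the only ligand of the list called between the lines.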
